A study of Homo sapiens with 42 samples.

Results

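Messenger RNA levels of 10 receptors of monocytes and macrophages were followed in 5 human acute myeloid leukaemia (AML) cell lines after decitabine or its solvent DMSO. The genes were CSF1R, ITGAM, ITGAX, FCGR1A, FCGR2A, CD68, CD163, CD4, CD33 and CLEC7A, named as a family of receptors. These genes, and the related and marker lists read beside them, were chosen with earlier results of these data known. Their counts and medians beside those of all tested genes are therefore descriptions. All 10 were found among the 60240 genes of the deposited table, and all 10 passed the filter on low values that left 22168 genes to test. SKM-1, OCI-AML3, KG-1 and the sister lines MOLM-13 and MOLM-14 are established AML lines, all labelled wild type. Each was sequenced in 3 treated and 3 control libraries, which makes 30. Treated cells received 100 nM decitabine at the start and on each following day up to day 2, control cells received DMSO, and RNA was taken after 72 hours. Each line is a single tumour-derived culture, so the lines are not replicates of a patient group, and the labels do not say whether the 3 libraries of a group came from separate cultures. The p-values therefore rest on a spread between libraries that may be technical only. The name MOLM-14 comes from the sample labels and is missing from the description of the series as a whole. A further 12 labelled libraries, those of THP-1 and OCI-AML2, were not analysed here.

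Decitabine is a cytidine analogue that is built into DNA, where it traps DNA methyltransferases and lowers methylation as cells divide. Monocytes arise from granulocyte-monocyte progenitors under the growth factor CSF1 and its receptor CSF1R, and take up opsonised particles through Fc gamma receptors and the beta2 integrins. AML cells often stop at a step of this path and carry some of these receptors, CD33 being the best known because antibodies against it are used in treatment. The set spans several roles: a growth factor receptor (CSF1R), adhesion and complement receptors (ITGAM and ITGAX, also called CD11b and CD11c), receptors for immunoglobulin G (FCGR1A and FCGR2A), glycoproteins of the endosome and scavenger pathway (CD68 and CD163), and single receptors with lectin or coreceptor roles (CD4, CD33 and CLEC7A). CD68 is found mainly on late endosomes and lysosomes, and only in part at the surface. CD14, the classical monocyte marker, was at most 5.36 normalised counts in any library, so this marker was at or near 0 in every line.

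The promoters of these genes are printed because demethylation of CpG sites is the direct action of the drug and because the myeloid factor PU.1 is known to bind near the start sites of several of them. RefSeq start sites (GRCh38.p14) were matched for 7 of the 10 genes, giving 8 windows of 300 bases from 250 before to 50 after the start, 2 of them for CSF1R. In the windows below, given 5′ to 3′ on the strand of the gene, capitals mark CG dinucleotides and the letters GAGGAA or their reverse complement TTCCTC, the core of the PU.1 motif. The windows are those of CSF1R on the minus strand (chr5:150086505-150086804), ITGAM on the plus strand (chr16:31259725-31260024), FCGR2A on the plus strand (chr1:161505207-161505506) and CD68 on the plus strand (chr17:7579388-7579687).
CSF1R: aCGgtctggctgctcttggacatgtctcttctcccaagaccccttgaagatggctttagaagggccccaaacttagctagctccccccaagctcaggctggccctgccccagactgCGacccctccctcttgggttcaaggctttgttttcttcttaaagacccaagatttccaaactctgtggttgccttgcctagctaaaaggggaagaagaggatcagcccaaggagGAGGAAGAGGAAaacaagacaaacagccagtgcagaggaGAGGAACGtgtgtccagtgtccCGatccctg
ITGAM: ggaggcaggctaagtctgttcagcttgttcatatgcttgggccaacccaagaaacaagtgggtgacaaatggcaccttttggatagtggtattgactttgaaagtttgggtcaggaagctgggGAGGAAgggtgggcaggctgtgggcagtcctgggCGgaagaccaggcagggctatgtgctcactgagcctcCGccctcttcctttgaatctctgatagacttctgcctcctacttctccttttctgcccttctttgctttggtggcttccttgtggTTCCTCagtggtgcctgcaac
FCGR2A: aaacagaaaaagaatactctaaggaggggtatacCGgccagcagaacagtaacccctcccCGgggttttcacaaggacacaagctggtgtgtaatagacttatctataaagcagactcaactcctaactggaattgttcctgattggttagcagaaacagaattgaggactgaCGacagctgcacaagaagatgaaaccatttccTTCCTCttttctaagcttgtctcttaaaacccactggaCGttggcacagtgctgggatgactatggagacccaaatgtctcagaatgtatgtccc
CD68: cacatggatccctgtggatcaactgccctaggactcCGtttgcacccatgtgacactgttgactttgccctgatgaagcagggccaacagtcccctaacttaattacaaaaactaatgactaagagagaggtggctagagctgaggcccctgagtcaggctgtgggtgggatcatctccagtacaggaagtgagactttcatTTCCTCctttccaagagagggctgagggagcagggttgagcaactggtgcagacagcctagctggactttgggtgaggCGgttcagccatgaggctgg

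GAGGAA or TTCCTC was present in 7 of the 8 windows, against 27.9% of the 34943 RefSeq windows of the same length, and the exception was the second start site of CSF1R (chr5:150113316-150113615). The CSF1R window above holds 3 copies, the first of which starts 20 bases before the start site and adjoins the second without sharing a base. In FCGR2A and CD68 the match starts 45 and 48 bases before the start site, and in FCGR1A (chr1:149782444-149782743) 46 bases before it. The RUNX core TGTGGT, read on both strands, was present in 2 windows (CSF1R and ITGAM) against 13.1% of all windows. In ITGAM it shares 1 base with TTCCTC. The C/EBP pattern TTGCNNAA, read on both strands, was present in 2 (CD163 and CD68) against 10.5%, and TATAAA, also on both strands, in 1 (FCGR2A) against 11.6%. CG dinucleotides were few: 1 to 8 per window against a median of 14 over all windows. A match describes the letters in the window and is no evidence of binding, and methylation was not measured in the data used here.

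In the GENCODE 29 annotation of GRCh38, ITGAM (chr16:31259967-31332892) and ITGAX (chr16:31355134-31382997) lie on the same strand, 22242 bases apart, and ITGAD follows ITGAX after 10315 bases. FCGR2A (chr1:161505430-161524013) has the near-identical copies FCGR2B and FCGR2C, and FCGR1A (chr1:149782671-149792518) has FCGR1B and the pseudogene FCGR1CP, so reads can be split between copies and the single values are uncertain. CSF1R (chr5:150053291-150113372), ITGAX, FCGR1A and CD68 (chr17:7579467-7582113) overlap annotated genes on the opposite strand, and whether counting used strand is not given in the sources used here. On their own strand, CD163 (chr12:7470813-7503893) overlaps CD163L1, CD68 overlaps AC016876.2 and FCGR2A overlaps AL590385.2. How reads were divided between these genes was not tested. No coding gene overlaps CD4 (chr12:6786858-6820808), CD33 (chr19:51225064-51243860) or CLEC7A (chr12:10116777-10130258).

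Values are normalised counts, that is the authors' estimated counts per gene divided by DESeq2 size factors. Libraries of MOLM-13 and SKM-1 held an estimated 42.9 to 75.0 M reads (M for mega) in genes, and those of the other 3 lines 1.97 to 31.2 M. Replicate 2 of both treatments was shallow in OCI-AML3, KG-1 and MOLM-14, at 1.97 to 4.59 M reads. In these 6 libraries 1 read is worth 4.3 to 10.3 normalised counts, against 0.279 to 0.488 in MOLM-13 and SKM-1, so a value listed at 0 there allows a low level. Within groups, the correlation of libraries over genes was 0.918 to 0.975 in the 3 shallower lines and 0.987 to 0.992 in MOLM-13 and SKM-1. The share of mitochondrial genes was higher with decitabine in MOLM-13 (18.2% to 19.1% against 12.5% to 14.1%), in SKM-1 (15.5% to 18.2% against 13.7% to 15.1%) and in MOLM-14 (10.5% to 11.5% against 8.06% to 9.09%).

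Without drug the lines carried different sets of receptors. SKM-1 was the line with high CSF1R and ITGAM, OCI-AML3 the line with high CD68 and FCGR2A and little ITGAM or ITGAX, and KG-1 the line with high ITGAM but little CD68, CD4 or FCGR1A. The sister lines MOLM-13 and MOLM-14 did not differ in the test for ITGAM, ITGAX, FCGR2A and CD68. All 10 genes differed between the 5 DMSO groups (limma, F-test, adjusted p below 0.05), as did 77.9% of all tested genes.

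Per kb of exon, CD68 was the highest of the 10 in MOLM-13, MOLM-14 and OCI-AML3, where its DMSO level was 537, 511 and 1414 normalised counts per kb. ITGAM was the highest in KG-1 (279 per kb), and CSF1R in SKM-1 (420.3 per kb) just above FCGR1A (416 per kb). After decitabine ITGAM took the first place in SKM-1 at 855 per kb, while the first place stayed with the same gene in the other 4 lines. CD163 or CLEC7A had the lowest DMSO level in every line.

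**Figure D1:**
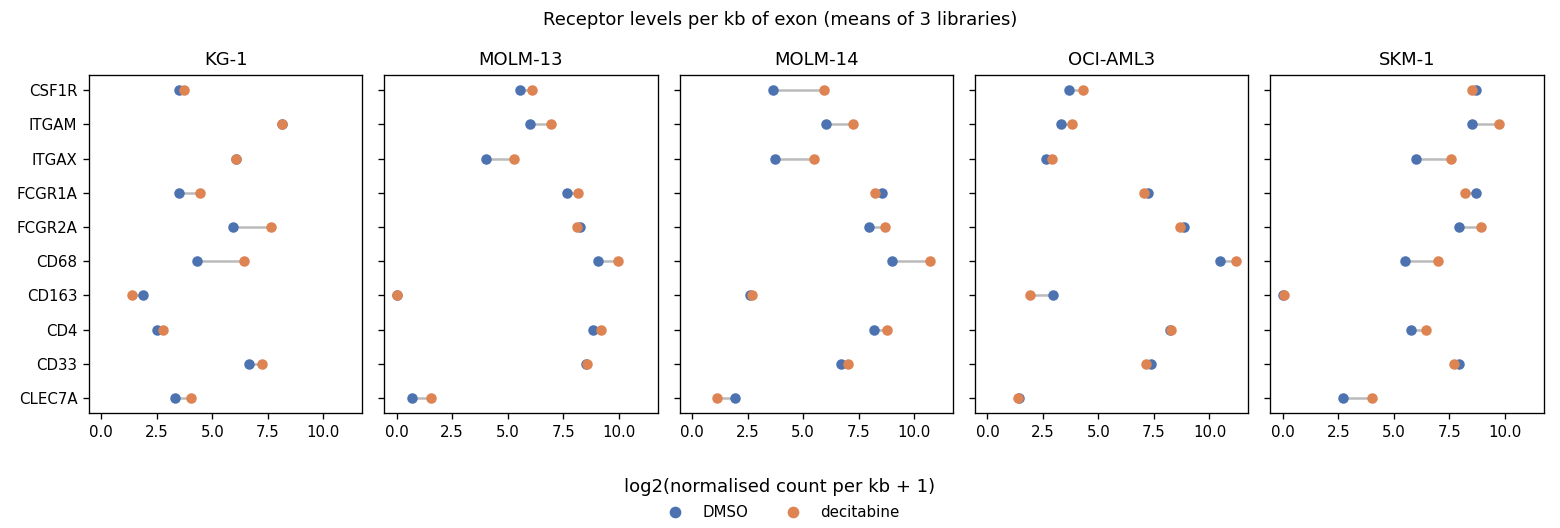
Mean level of each receptor as log2(normalised count per kb of exon + 1) in each line, with DMSO in blue and decitabine in orange (means of 3 libraries, so no error is drawn). CD68 is the rightmost point in MOLM-13, MOLM-14 and OCI-AML3, ITGAM in KG-1, and CSF1R under DMSO and ITGAM under decitabine in SKM-1.

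The order of the DMSO levels is given as mean ± SD over 3 libraries. CSF1R was 2165 ± 128 in SKM-1, 234 ± 17.8 in MOLM-13, and 52.7 to 61.0 in mean in OCI-AML3, MOLM-14 and KG-1. The steps from SKM-1 to MOLM-13 and from MOLM-13 to OCI-AML3 passed the limma test (adjusted p = 4.16e-06 and 0.00157), and the 3 lowest lines did not differ beyond their spread. ITGAM was 2073 ± 98.4 in SKM-1 and 1589.6 ± 82.4 in KG-1, which did not differ in the test, then 365 ± 15.8 in MOLM-14 and 362 ± 32.6 in MOLM-13, and 50.3 ± 30.7 in OCI-AML3. ITGAX followed nearly the same order, with 463 ± 29.3 in KG-1, 442 ± 24.3 in SKM-1, 107 ± 23.3 in MOLM-13, 87.6 ± 13.2 in MOLM-14 and 36.7 ± 8.41 in OCI-AML3. KG-1 and SKM-1 thus formed the upper pair, MOLM-13 and MOLM-14 the middle pair and OCI-AML3 the lowest level for both integrins, and the steps between these 3 tiers passed the test.

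FCGR1A was 1246 ± 79.5 in SKM-1, 1112 ± 66.9 in MOLM-14, 605 ± 51.3 in MOLM-13, 451 ± 62.3 in OCI-AML3 and 31.1 ± 4.99 in KG-1. Each step except the first passed the test, and that from OCI-AML3 to KG-1 was the widest at 3.82 log2 units (limma, adjusted p = 1.34e-16). FCGR2A was 2470.2 ± 219.7 in OCI-AML3, lay between 1313 and 1608 in mean in MOLM-13, MOLM-14 and SKM-1, and was 316 ± 66.1 in KG-1. CD68 was 3095 ± 778 in OCI-AML3, 1176 ± 37.8 in MOLM-13, 1118 ± 352 in MOLM-14, 98.3 ± 6.77 in SKM-1 and 41.8 ± 12.4 in KG-1. SKM-1, the highest line for CSF1R, ITGAM and FCGR1A, was therefore the second lowest for CD68, and each step of the CD68 order except that from MOLM-13 to MOLM-14 passed the test.

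CD4, known as the T cell coreceptor and also carried by human monocytes, was 2118 ± 162 in MOLM-13, 1349 ± 42.4 in OCI-AML3, 1319 ± 85.2 in MOLM-14, 247 ± 9.67 in SKM-1 and 21.6 ± 11.8 in KG-1. CD33, a sialic acid binding lectin of myeloid cells, had the smallest ratio of highest to lowest mean among the 10, with means from 589.7 ± 19.6 in KG-1 to 2209 ± 125 in MOLM-13. CD163, the haemoglobin scavenger receptor, was listed at 0 in all 3 DMSO libraries of MOLM-13 and at 0 to 0.0787 in SKM-1, and at 0 to 49.5 in the libraries of OCI-AML3, MOLM-14 and KG-1. CLEC7A, the beta-glucan receptor Dectin-1, ranged from 0 to 45.1 over all 15 DMSO libraries, and no neighbouring lines in its order differed in the test. For CD163 the step from KG-1 to SKM-1 passed it (limma, adjusted p = 0.00968).

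Pairs of lines differed in 5 to 10 of the 10 receptors under DMSO, by limma at an adjusted p below 0.05. KG-1 differed from MOLM-13 in 10 (49.5% of all tested genes called), from MOLM-14 in 6 (44.7%), from OCI-AML3 in 8 (43.4%) and from SKM-1 in 7 (49.2%). MOLM-13 differed from MOLM-14 in 5 (36.2%), from OCI-AML3 in 9 (47.9%) and from SKM-1 in 8 (40.6%). MOLM-14 differed from OCI-AML3 in 6 (38.3%) and from SKM-1 in 7 (50.4%), and OCI-AML3 from SKM-1 in 9 (50.6%). The pair with the fewest differing receptors was MOLM-13 and MOLM-14, which also had the smallest share of all genes called. The 5 receptors that set them apart were CD4, CD33, CSF1R and CD163 as well as FCGR1A, of which FCGR1A and CD163 were higher in MOLM-14.

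After decitabine, CD68, both integrin alpha chains, CSF1R, FCGR2A and CD4 were higher on the mean of the 5 lines, and the response was uneven: MOLM-14 and SKM-1 moved most of these genes, KG-1 moved the Fc receptors, CD33 and CD68, and OCI-AML3 had no receptor past the threshold. FCGR1A went up in KG-1 and down in SKM-1. CD68 was the gene with the largest mean rise, 1.39 ± 0.11 on the log2 scale. In bulk RNA, a larger share of cells with a receptor and more of its RNA per cell cannot be told apart.

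On the mean of the 5 lines, 6 of the 10 receptors were called higher by limma (adjusted p below 0.05 over all tested genes), against 12% of tested genes called higher and 7.52% called lower. Mean differences on the log2(value + 1) scale, with SE, were 1.39 ± 0.11 for CD68 (adjusted p = 2.05e-09), 0.95 ± 0.16 for ITGAX (8.91e-05), 0.80 ± 0.17 for ITGAM (0.00134), 0.78 ± 0.21 for CSF1R (0.00973), 0.62 ± 0.06 for FCGR2A (4.67e-08) and 0.41 ± 0.11 for CD4 (0.00815). CLEC7A at 0.50 ± 0.47, FCGR1A at 0.09 ± 0.07, CD33 at 0.09 ± 0.05 and CD163 at -0.32 ± 0.42 were not called. The median difference of the 10, which were chosen with earlier results known, was 0.56 against 0.06 over all tested genes. The CSF1R value rests on MOLM-14, without which it was 0.37 (adjusted p = 0.366), and the CD4 call was lost without MOLM-14 (0.36, adjusted p = 0.0662) or SKM-1 (0.34, adjusted p = 0.118). In a fit on OCI-AML3, KG-1 and MOLM-14 alone, CD68 and FCGR2A were called, while ITGAX (0.61, adjusted p = 0.196) and ITGAM (0.62, adjusted p = 0.242) were not.

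Line by line, 14 of the 50 combinations of receptor and line were called higher, 1 lower and 35 neither. Called higher were 4 of 10 receptors in KG-1 (3.12% of tested genes higher, 0.663% lower), 1 in MOLM-13 (1.45% and 1.67%), 5 in MOLM-14 (6.26% and 4.77%) and 4 in SKM-1 (5.7% and 3.32%), where 1 was called lower. In OCI-AML3 none was called (3.74% and 1.64%), and 2 of the 10 had an unadjusted p below 0.05 in limma, CD68 higher and CD33 lower. OCI-AML3 gave 0 to 2 called receptors under the alternative settings.

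The fit shares 1 estimate of the spread over all 30 libraries, shallow ones included. Counting instead the receptors for which all 3 decitabine libraries lay above all 3 DMSO libraries gave 5 in KG-1 (10.2% of tested genes higher and 6.44% lower in this way), 6 in MOLM-13 (22.8% and 17%), 7 in MOLM-14 (11.2% and 9.5%), 2 in OCI-AML3 (10.1% and 7.42%) and 7 in SKM-1 (29.2% and 18.9%). The SKM-1 count includes CD163, whose values there amount to about 1 read or less. Receptors with all decitabine libraries below all DMSO libraries were FCGR1A in MOLM-14 and CSF1R, FCGR1A and CD33 in SKM-1. A fit on the 6 libraries of MOLM-13 alone called 6 receptors higher (16% of the genes tested there higher and 15.6% lower): CSF1R, ITGAM, ITGAX, FCGR1A, CD68 and CD4. On SKM-1 alone it called ITGAM, ITGAX, FCGR2A, CD68, CD4 and CLEC7A higher and CSF1R, FCGR1A and CD33 lower (25.1% higher and 18.7% lower).

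**Figure D2:**
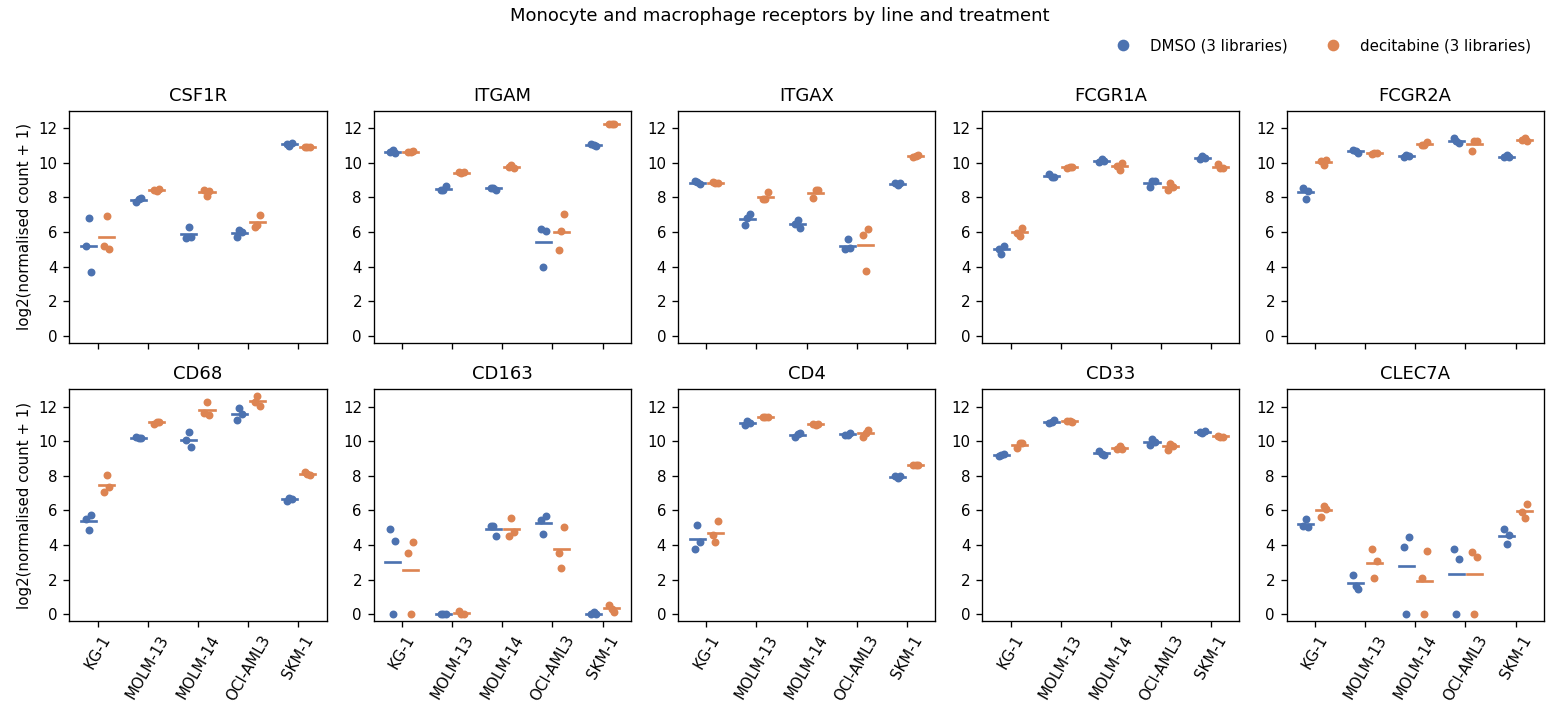
Level of each receptor as log2(normalised count + 1) in every library, by line on the x axis, with DMSO in blue, decitabine in orange and a bar at the mean of 3 libraries. CD68 lies higher with decitabine in all 5 lines, ITGAM and ITGAX do so in MOLM-13, MOLM-14 and SKM-1, and FCGR1A lies higher in KG-1 and MOLM-13 and lower in MOLM-14 and SKM-1.

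**Figure D3:**
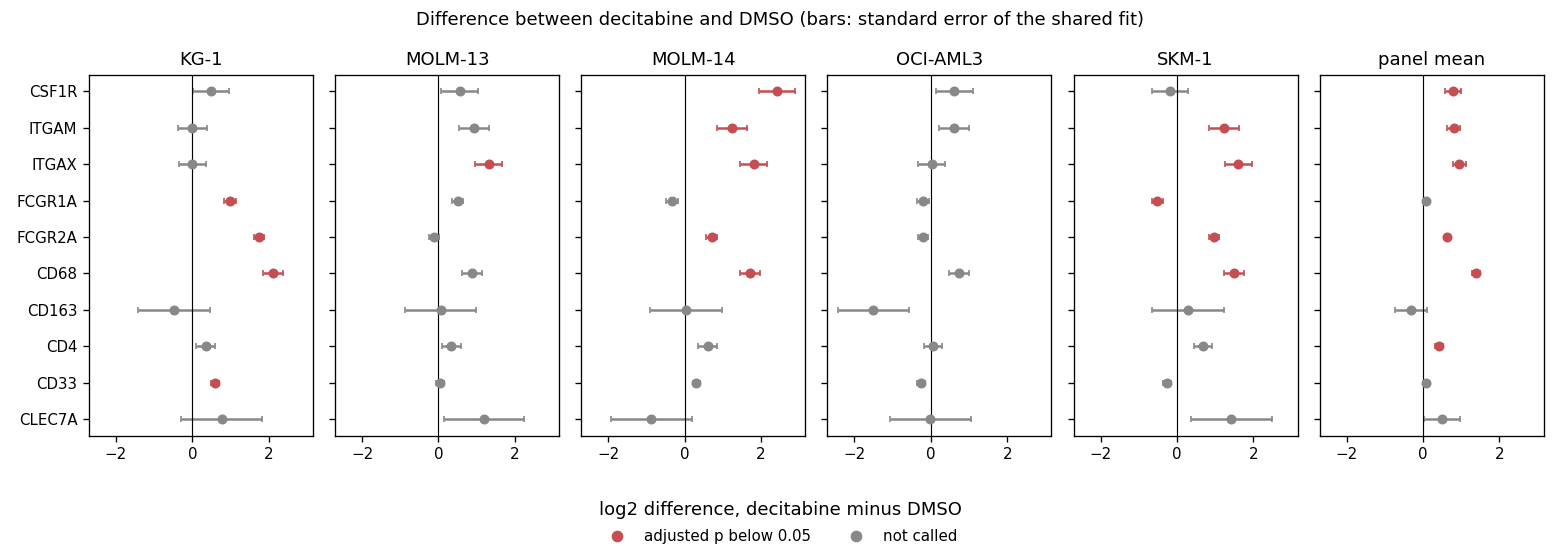
Difference between decitabine and DMSO on the log2(value + 1) scale for each receptor in each line and for the mean of the 5 lines, with the SE of the fit shared by all lines as bars. Red points have an adjusted p below 0.05: 4 in KG-1, 1 in MOLM-13, 5 in MOLM-14, 0 in OCI-AML3, 5 in SKM-1 and 6 in the panel mean.

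CSF1R, the tyrosine kinase receptor for CSF1 and IL34, changed most in MOLM-14. Its normalised counts there were 49.6, 76.2 and 51.3 under DMSO and 345, 272 and 329.8 under decitabine, a 5.35-fold higher mean. The groups were far apart, and the difference of 2.42 ± 0.48 log2 units was called (limma, adjusted p = 0.00138). In MOLM-13 the values were 215, 236 and 251 under DMSO and 346, 332 and 351 under decitabine. In OCI-AML3 they were 52.3, 68.1 and 62.4 under DMSO and 78.5, 84.3 and 124 under decitabine. Both lines had every decitabine library above every DMSO library, and neither difference was called in the shared fit (0.55 ± 0.48 and 0.62 ± 0.48).

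SKM-1, where CSF1R was highest, went the other way by a small amount. Its values were 2176, 2032 and 2287 under DMSO and 1942, 1896 and 1894 under decitabine. The groups did not overlap, and the difference of -0.18 ± 0.48 was not called in the shared fit but was on SKM-1 alone (limma, adjusted p = 0.0305). In KG-1 the values were scattered, with 34.9, 111 and 11.7 under DMSO and 36.0, 119 and 31.5 under decitabine, and the shallow replicate 2 was the highest in both groups. The difference in response between lines was not called for CSF1R (F-test, limma adjusted p = 0.0859). The same test called it with a pseudocount of 5 (0.048), library weights (0.000122), a replicate block (0.00261) and without the 6 shallow libraries (0.000467). It was not called without the filter (0.131), with quantile normalization (0.121) or scaled without mitochondrial genes (0.0798). Of the 30 fits that left out 1 library, 3 called it.

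Of the ligands, CSF1 rose on the mean of the lines by 1.14 ± 0.35 (SE) (limma, adjusted p = 0.0216), from low levels. In MOLM-14 it was 4.72, 0 and 13.6 under DMSO and 22.6, 68.3 and 14.4 under decitabine, so the shallow libraries set both the lowest and the highest value. IL34 stayed below the filter, with at most 1.74 normalised counts in any library. Of the 15 genes of the list on the CSF1R axis (ligands, related growth factor receptors and myeloid factors), 13 passed the filter, 4 were called higher and 1 lower. The 4 were TYROBP, the adaptor DAP12 of myeloid receptors, at 1.55 ± 0.10, CSF1, the factor RUNX1 at 0.26 ± 0.04, and CSF2RB, the shared beta chain of the GM-CSF and IL3 receptors, at 0.24 ± 0.06. FLT3, a progenitor receptor, fell by 0.15 log2 units. SPI1, which encodes PU.1, was not called at 0.09 ± 0.09 (adjusted p = 0.567), and its groups overlapped in all 5 lines. The list's median difference was 0.24 against 0.06 over all tested genes.

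ITGAM and ITGAX encode alpha chains that pair with the beta2 chain ITGB2 to form complement receptors 3 and 4. In MOLM-14, ITGAM counts were 369.9, 378 and 348 under DMSO and 853, 917 and 818 under decitabine. In SKM-1 they were 2177, 2059.6 and 1982 under DMSO and 4874, 4826 and 4888 under decitabine. In both lines the groups lay far apart: the fold of means was 2.36 and 2.35, and the differences of 1.24 ± 0.38 and 1.23 ± 0.38 were called (limma, adjusted p = 0.0386 and 0.0445). These calls lie close to the threshold, and leaving out any 1 of the 6 libraries of the line ended them (adjusted p 0.0613 to 0.104 in MOLM-14 and 0.0963 to 0.126 in SKM-1). The fit on SKM-1 alone and that on MOLM-14 alone each called ITGAM.

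MOLM-13 had a difference of similar size in ITGAM, with 344, 342 and 399.7 under DMSO and 695, 674 and 705 under decitabine. The fold of means was 1.91, with a difference of 0.93 ± 0.38 that was not called in the shared fit (adjusted p = 0.257) but was on MOLM-13 alone (limma, adjusted p = 0.000287). KG-1 held the same level in both groups, 1579.6, 1677 and 1513 under DMSO and 1575, 1564 and 1628 under decitabine. OCI-AML3 had low and scattered values, 70.7, 15 and 65.2 under DMSO and 30.6, 64.4 and 130.0 under decitabine, and its groups overlapped. Whether the ITGAM response differs between lines was tested and not called (F-test, limma adjusted p = 0.421).

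ITGAX moved in the same lines, by a larger factor. MOLM-14 had 87.0, 101 and 74.7 under DMSO and 248, 337 and 349.5 under decitabine. SKM-1 had 455, 414 and 457 under DMSO and 1301, 1338 and 1406 under decitabine, and MOLM-13 had 82.0, 110.3 and 128 under DMSO and 240.3, 243 and 313 under decitabine. In none of these lines did the groups overlap, and the means rose 3.55-fold in MOLM-14, 3.05-fold in SKM-1 and 2.49-fold in MOLM-13. The differences were 1.81 ± 0.36, 1.61 ± 0.36 and 1.32 ± 0.36, all called by limma (adjusted p = 0.00138, 0.00336 and 0.0399). The MOLM-13 call was lost without any 1 of its 6 libraries (adjusted p 0.0532 to 0.232).

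KG-1 again had the same ITGAX level in both groups, 485, 474 and 429 under DMSO and 482, 447 and 457 under decitabine. In OCI-AML3 the values were 31.6, 46.4 and 32.0 under DMSO and 54.9, 12.4 and 71.5 under decitabine, where the low decitabine value is that of the shallow replicate 2. Without that library the difference was 0.78 and was called (limma, adjusted p = 0.0253), against 0.03 ± 0.36 with it. The ITGAX response differed between lines (F-test, limma adjusted p = 0.0243), a call lost with a replicate block (0.0802). Across the 30 libraries ITGAM and ITGAX had the highest correlation of any pair of the 10 receptors (Pearson r = 0.93 of log2 values), a description of libraries that share lines and treatments.

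On the mean of the lines ITGB2 itself moved less, being higher by 0.21 ± 0.05 (SE) (limma, adjusted p = 0.00535). Its largest rise was in OCI-AML3, with 2933, 4064 and 3390 under DMSO and 4759, 5854 and 4930 under decitabine. That log2 difference was 0.59, near the 0.61 of ITGAM in this line and above the 0.03 of ITGAX. In SKM-1 it was 4765, 4924 and 4916 under DMSO and 6525, 6107 and 6129 under decitabine. In MOLM-13, where ITGAM and ITGAX were higher with decitabine, ITGB2 was 3197, 3446 and 3443 under DMSO and 2906, 3081 and 2994 under decitabine, lower in all 3 decitabine libraries. All 12 genes of the list of beta2 partners and ligands passed the filter, and 7 were called higher. The largest were JAML, an adhesion molecule of leukocytes, at 0.95 ± 0.18, the integrin ligands ICAM3 at 0.49 ± 0.08 and ICAM1 at 0.43 ± 0.13, and the integrin activator FERMT3 (kindlin-3) at 0.31 ± 0.06. The median of the list was 0.21 against 0.06 over all tested genes. The neighbouring gene ITGAD was at most 25.8 normalised counts in any library, with 4.73, 1.32 and 2.79 under DMSO and 13.1, 14.4 and 25.8 under decitabine in SKM-1.

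FCGR1A encodes the high-affinity receptor for immunoglobulin G (CD64), and its response had opposite signs in different lines. KG-1 had 31.8, 25.9 and 35.8 under DMSO and 60.7, 52.8 and 75.0 under decitabine, a 2.02-fold higher mean at a low level. MOLM-13 had 664, 569 and 583 under DMSO and 824, 870.4 and 871 under decitabine. In both lines the decitabine libraries were all higher, with differences of 0.99 ± 0.15 (limma, adjusted p = 0.000112) and 0.50 ± 0.15 (adjusted p = 0.0654). The KG-1 call was lost in a fit on KG-1 alone (adjusted p = 0.231), and the MOLM-13 difference was called in a fit on MOLM-13 alone (adjusted p = 0.00249).

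SKM-1 had 1166, 1325 and 1248 under DMSO and 959.6, 815 and 840.1 under decitabine, and MOLM-14 had 1068, 1189 and 1079 under DMSO and 896, 752 and 1024 under decitabine. All decitabine libraries were the lower ones in both. The SKM-1 difference of -0.52 ± 0.15 was called (limma, adjusted p = 0.0249), but not without DMSO replicate 2 or 3 or decitabine replicate 2 or 3 (adjusted p 0.0765 to 0.118), nor after scaling to the total without mitochondrial genes (adjusted p = 0.0575). The MOLM-14 difference of -0.33 ± 0.15 was not called. OCI-AML3 overlapped, with 379, 492 and 482 under DMSO and 339, 447 and 388 under decitabine. That the response of FCGR1A differs between lines was called (F-test, limma adjusted p = 4.89e-05).

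FCGR1A shares reads with FCGR1B and FCGR1CP, and these copies had higher means with decitabine in SKM-1 and MOLM-14. In SKM-1, FCGR1B was 391, 359 and 353 under DMSO and 511, 492 and 514 under decitabine, all decitabine libraries being higher. In MOLM-14, FCGR1CP was 46.6, 30.2 and 30.5 under DMSO and 99.1, 61.6 and 59.8 under decitabine. Summed over the 3 copies, SKM-1 had 1569, 1696 and 1621 under DMSO and 1493, 1331 and 1369.6 under decitabine, still lower in every decitabine library, by a factor of 0.858. The sum in MOLM-14 was 1493, 1659 and 1645 under DMSO and 1532, 1431 and 1566 under decitabine, with overlapping groups. The share of FCGR1A in the sum was 76.5% under DMSO and 62.4% under decitabine in SKM-1, and 69.5% and 59.0% in MOLM-14. This share was 81.7% and 80.4% in OCI-AML3, and 57.9% in both groups of MOLM-13. In KG-1 it was only 31.1% and 32.3%, and FCGR1B had the larger mean, 68.0 under DMSO and 130.7 under decitabine. In KG-1 and MOLM-13 the sum was higher as well, 1.95-fold and 1.41-fold, with no overlap.

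FCGR2A encodes the activating low-affinity receptor CD32A, and it was called higher in KG-1, SKM-1 and MOLM-14. KG-1 had 373, 243 and 332 under DMSO and 1112, 925 and 1129.9 under decitabine, a 3.34-fold higher mean. SKM-1 had 1283, 1370.1 and 1286 under DMSO and 2542, 2732 and 2454 under decitabine, and MOLM-14 had 1265, 1418 and 1339 under DMSO and 2124, 2119.5 and 2326 under decitabine. The lines kept a clear gap between the groups, with differences of 1.75 ± 0.14, 0.97 ± 0.14 and 0.71 ± 0.14 (limma, adjusted p = 9.37e-09, 1.66e-05 and 0.00116). KG-1 started from the lowest DMSO level and reached a mean of 1056, still below the DMSO means of the other lines. The mean over lines without KG-1 was 0.34 (adjusted p = 0.000199), against 0.62 with it.

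In MOLM-13 FCGR2A was 1692, 1649 and 1484 under DMSO and 1425, 1525 and 1506 under decitabine, and in OCI-AML3 2717, 2396 and 2297 under DMSO and 1654, 2441 and 2436 under decitabine. The groups of both lines overlapped. The response of FCGR2A differed between lines, with the smallest adjusted p of the 10 receptors (F-test, limma, 3.37e-07). FCGR2B, the inhibitory receptor of the family, and FCGR2C showed no such split: in all 5 lines every decitabine library was above every DMSO library for both genes. In OCI-AML3, FCGR2B was 47.8, 74.5 and 34.8 under DMSO and 266, 255 and 190.3 under decitabine. In MOLM-14 it was 233, 58.6 and 113 under DMSO and 890.3, 1181 and 512 under decitabine, and in SKM-1 it was 11.4, 10.8 and 10.5 under DMSO and 27.3, 29.1 and 26.5 under decitabine. The fold of means was therefore 4.52 in OCI-AML3 and 6.38 in MOLM-14, larger than the 2.53 in SKM-1.

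Because the 3 copies share sequence, their sum was also read. In MOLM-14 it was 1602, 1719.5 and 1675 under DMSO and 3628, 3600.4 and 3347 under decitabine, and in SKM-1 1375, 1463 and 1378 under DMSO and 2760.5, 2958 and 2648 under decitabine. Both lines had sums 2.12-fold and 1.98-fold higher with no overlap, and KG-1 had a sum 3.34-fold higher. MOLM-13 at 0.951-fold and OCI-AML3 at 0.985-fold overlapped, as FCGR2A alone did. FCGR2A made up 80.5% of the sum under DMSO and 62.1% under decitabine in MOLM-14, 95.7% and 85.7% in OCI-AML3, and 93.4% and 92.4% in SKM-1.

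**Figure D4:**
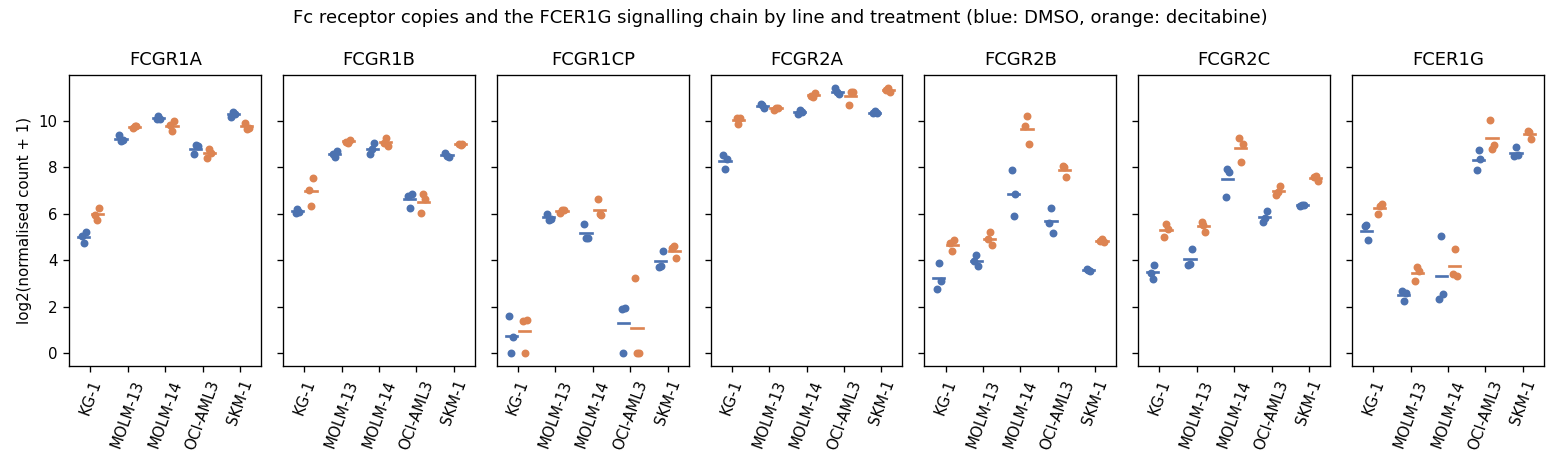
Levels of the FCGR1 and FCGR2 copies and of FCER1G as log2(normalised count + 1) in each library, by line, with DMSO in blue, decitabine in orange and bars at the means of 3 libraries. FCGR2B and FCGR2C lie higher with decitabine in all 5 lines, while FCGR2A overlaps in MOLM-13 and OCI-AML3 and FCGR1A lies lower in MOLM-14 and SKM-1.

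FCER1G, the signalling chain that FCGR1A needs, was higher on the mean of the lines by 0.83 ± 0.22 (limma, adjusted p = 0.00717). In SKM-1 it was 355, 471 and 365 under DMSO and 766, 746 and 605 under decitabine, higher in every decitabine library, while FCGR1A was lower in each. In MOLM-13 it was low, 5.40, 3.77 and 5.10 under DMSO and 7.69, 12.2 and 10.6 under decitabine. The kinase SYK downstream of these receptors was not called (0.19 ± 0.11, adjusted p = 0.275). Of the 17 genes of the Fc receptor list, 16 passed the filter and 8 were called higher. After FCGR2B at 1.73 ± 0.18 these were led by the kinase FGR at 1.44 ± 0.19, FCGR2C at 1.38 ± 0.13 and FCAR, the receptor for immunoglobulin A, at 1.17 ± 0.39. The list's median difference was 0.62 against 0.06 over all tested genes.

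CD68 was higher in every decitabine library than in every DMSO library of its line, in all 5 lines, and no other receptor of the 10 showed this. KG-1 had 44.8, 28.2 and 52.5 under DMSO and 134, 266 and 160.5 under decitabine. MOLM-14 had 1069, 1493 and 794 under DMSO and 3153, 4853 and 2899 under decitabine, and SKM-1 had 90.5, 102 and 102 under DMSO and 299, 271 and 264 under decitabine. Means rose 4.47-fold in KG-1, 3.25-fold in MOLM-14 and 2.83-fold in SKM-1, and the differences of 2.12 ± 0.25, 1.71 ± 0.25 and 1.49 ± 0.25 were called (limma, adjusted p = 4.95e-06, 5.73e-05 and 0.000186). In a fit on KG-1 alone the call was just lost (adjusted p = 0.0548).

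MOLM-13 and OCI-AML3 showed smaller steps, although under DMSO CD68 in MOLM-13 did not differ in the test from that in MOLM-14 (limma, adjusted p = 0.76). MOLM-13 had 1219, 1147 and 1162 under DMSO and 2026, 2229 and 2232 under decitabine, and OCI-AML3 had 2366, 3913 and 3005 under DMSO and 4917, 6214 and 4265 under decitabine. Their differences of 0.88 ± 0.25 and 0.74 ± 0.25 were not called (limma, adjusted p = 0.0574 and 0.0927). That of MOLM-13 was called on MOLM-13 alone (adjusted p = 0.000133), and without the 6 shallow libraries both were (adjusted p = 0.000108 and 0.00167). In MOLM-14 and OCI-AML3 the shallow replicate 2 had the highest CD68 of its group under both treatments. The response differed between lines (F-test, limma adjusted p = 0.0427), a call that was lost in 21 of the 30 fits that left out 1 library (adjusted p from 0.0194 to 0.0783 over the 30).

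CD163 stayed at or near 0 in MOLM-13 and SKM-1, where decitabine libraries had at most 0.118 and 0.454 normalised counts, about 1 read or less. OCI-AML3 had 42.3, 24.2 and 49.5 under DMSO and 10.4, 5.38 and 32.3 under decitabine, KG-1 had 29.5, 0 and 17.5 under DMSO and 10.6, 0 and 16.7 under decitabine, and MOLM-14 had 32.9, 32.9 and 22.1 under DMSO and 21.9, 46.5 and 25.7 under decitabine. The groups overlapped in these 3 lines, and no difference was called in any line. In SKM-1 the values of 0, 0.0787 and 0 under DMSO lay below those of 0.454, 0.247 and 0.111 under decitabine, but levels of about 1 read carry no detectable difference. HP and HMOX1, which belong to the same haem-handling pathway, were called higher in the panel mean, at 1.42 ± 0.46 and 1.76 ± 0.33. Of the 16 genes on the list of scavenger receptors and LAMP proteins, 13 passed the filter, 6 were called higher and 1 lower. STAB1, a scavenger receptor of macrophages and endothelium, was at 2.08 ± 0.32, and the fatty acid and lipoprotein receptor CD36 at 1.01 ± 0.11. SCARB1 was the gene called lower, at -0.32 ± 0.06. The median was 0.17 against 0.06 over all tested genes.

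CD4 rose by small factors. MOLM-14 had 1226, 1339 and 1392 under DMSO and 2012, 1936 and 2064 under decitabine, SKM-1 had 248, 237 and 256 under DMSO and 393, 399 and 398 under decitabine, and MOLM-13 had 1944, 2265 and 2145 under DMSO and 2645, 2746 and 2644 under decitabine. The groups did not overlap in these 3 lines, with folds of 1.52, 1.61 and 1.26. None was called in the shared fit (limma, adjusted p = 0.113, 0.0837 and 0.712), and each was called in a fit on its line alone (adjusted p = 0.0465, 0.000149 and 0.00644). OCI-AML3, with 1319.7, 1329.7 and 1398 under DMSO and 1209, 1413 and 1628 under decitabine, and KG-1, with 12.5 to 40.6 in its 6 libraries, had overlapping groups. In KG-1 the difference was called without DMSO replicate 2 (0.75, limma adjusted p = 0.0477), against 0.35 ± 0.24 with it.

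Because CD4 is best known from T cells, a list of T cell genes was read beside it. Of 14 genes, 13 passed the filter and 4 were called higher in the panel mean: CD5 at 1.31 ± 0.37, CD3D at 1.17 ± 0.23, CD3E at 1.05 ± 0.22 and the cytokine IL16 at 0.65 ± 0.08. In SKM-1, 8 of the 13 were called higher, and CD3E was 0.852, 2.17 and 1.15 under DMSO and 44.9, 46.5 and 48.6 under decitabine there. In MOLM-13 and MOLM-14, CD3E was at most 3.24 in any library, while CD4 was 1225.5 or more in every one. OCI-AML3, with CD4 at 1209 or more, listed CD3E at 0 in all 6 libraries. KG-1, the line with the lowest CD4 under DMSO, had the most CD3E, with 189, 203 and 175 under DMSO and 265, 264 and 259 under decitabine. The kinase LCK, which CD4 binds in T cells, was not called in the panel mean (0.55 ± 0.37, adjusted p = 0.353). Its groups did not overlap in SKM-1, with 0.771, 0 and 1.37 under DMSO and 8.55, 7.35 and 12.6 under decitabine, or in KG-1, with 34.3, 26.1 and 44.7 under DMSO and 73.6, 113 and 84.6 under decitabine. They overlapped in the other 3 lines. The median of the list was 0.55 against 0.06 over all tested genes.

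CD33 changed little, and in opposite directions. In KG-1 it was 569.8, 590.2 and 609 under DMSO and 764, 949 and 952 under decitabine, and in MOLM-14 678, 615 and 582 under DMSO and 733, 854 and 741 under decitabine. Every decitabine library was higher in both lines, with differences of 0.58 ± 0.10 (limma, adjusted p = 0.000862) and 0.31 ± 0.10 (adjusted p = 0.0536). The KG-1 call was lost on KG-1 alone (adjusted p = 0.137), and MOLM-14 was called without DMSO replicate 1 (0.37, adjusted p = 0.0378). SKM-1 had 1482, 1419.5 and 1524 under DMSO and 1246, 1231 and 1227 under decitabine, where every decitabine library was lower, with a difference of -0.26 ± 0.10 called only on SKM-1 alone (adjusted p = 0.00388), with library weights estimated by limma (0.000176) and without the 6 shallow libraries (0.0452).

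MOLM-13, the line with the most CD33, had 2103, 2179 and 2346 under DMSO and 2272, 2324 and 2236 under decitabine, and OCI-AML3 had 866, 1099 and 1003 under DMSO and 726, 913 and 856 under decitabine. Both overlapped between the groups. The CD33 response differed between lines (F-test, limma adjusted p = 0.000662), and its mean over lines was called only when OCI-AML3 was left out (0.17, adjusted p = 0.00739) or, with the opposite sign, in MOLM-13 and SKM-1 alone (-0.11, adjusted p = 0.0278). Of the 13 other genes of the Siglec list, 11 passed the filter and 3 were called higher: SIGLEC15 at 1.19 ± 0.29, SIGLEC9 at 0.96 ± 0.23 and SIGLEC7 at 0.93 ± 0.29. Their median was 0.52 against 0.06 over all tested genes.

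CLEC7A was low throughout. SKM-1 had 29.6, 15.8 and 23.1 under DMSO and 59.4, 45.8 and 83.1 under decitabine, and KG-1 had 33.9, 45.1 and 32.3 under DMSO and 49.1, 75.9 and 67.9 under decitabine. All decitabine libraries were the higher ones in both lines, 2.75-fold and 1.73-fold in mean, and neither was called in the shared fit (limma, adjusted p = 0.599 and 0.864). The SKM-1 difference was called on SKM-1 alone (adjusted p = 0.00499) and without the 6 shallow libraries (0.0231). MOLM-13 had 3.72, 2.16 and 1.80 under DMSO and 12.9, 3.23 and 7.51 under decitabine, and in MOLM-14 and OCI-AML3 the shallow replicate 2 was listed at 0 in both groups, so that no difference was detectable at that depth. Of the 19 other genes of the C-type lectin list, 15 passed the filter and 4 were called higher: CLEC12B at 1.76 ± 0.36, the mannose receptor MRC1 at 1.66 ± 0.19, CLEC12A at 1.23 ± 0.22 and the kinase PRKCD at 0.42 ± 0.06. CARD9, the adaptor downstream of CLEC7A, was not called (0.22 ± 0.08, adjusted p = 0.0719). The list's median was 0.22 against 0.06.

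The MRC1 mean rested on SKM-1 and KG-1, with log2 differences of 5.05 and 2.92, while those of MOLM-13, MOLM-14 and OCI-AML3 were 0.07, 0 and 0.27. CLEC12A, a myeloid inhibitory receptor, had differences of 0.67 to 2.00 in the 5 lines.

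The test of whether the response differs between lines called 5 of the 10 receptors, against 9.46% of all tested genes. These were FCGR2A, FCGR1A, CD33, ITGAX and CD68. CSF1R, ITGAM, CD4, CLEC7A and CD163 were not called, which does not show that they responded alike. In the 5 lines, FCGR1A and CD33 had differences on both sides of 0, from -0.52 to 0.99 and from -0.26 to 0.58. CD68 had positive differences throughout, from 0.74 to 2.12, and ITGAX ran from near 0 in KG-1 to 1.81 in MOLM-14. CD68 and FCGR2A were each called higher in KG-1, MOLM-14 and SKM-1.

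The genes with the most similar pattern over the 30 libraries were found by Pearson correlation of log2 values, as a description of libraries that share lines, treatments and depth. NOXA1 was among the 3 closest genes to ITGAM (r = 0.94) and to ITGAX (0.93). CSF1R was closest to DNAJC5 (0.94), S100A4 (0.93) and PSMB8-AS1 (0.92). FCGR1A was closest to SLC7A2 (0.97), DGAT2 (0.97) and UACA (0.97), and FCGR2A to HRH1 (0.93), the neonatal Fc receptor FCGRT (0.92) and LLGL2 (0.92). CD68 was closest to STX1A (0.96), VIM (0.96) and MYCL (0.95), and CD4 to CFD (0.98), AC090204.1 (0.98) and CBR1 (0.98). CD33 had GTF2E2 (0.95), INTS10 (0.94) and NAA20 (0.94). For CD163 and CLEC7A, which are at or near 0 in many libraries, the closest genes (AC092447.10 at 0.95 and AC109449.1 at 0.90) carry little information.

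Markers of other cell types moved with the treatment as well, and their part in the receptor values was not tested. Of 12 monocyte markers, 11 passed the filter, 9 were called higher in the panel mean and 1 (CCR2) lower. Their summed level was 895 to 1159.9 under DMSO and 1816 to 2129.9 under decitabine in KG-1, 8132 to 8602 and 16232 to 16784 in MOLM-13, and 3991 to 4556 and 10240.0 to 11009 in MOLM-14. It was 11452 to 12643 and 25452 to 26182 in OCI-AML3, and 23423 to 25198 and 42028 to 43259 in SKM-1. In all 5 lines every decitabine library had a larger sum than every DMSO library, also in OCI-AML3, while CD14 stayed under 10 in all libraries.

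Of 10 granulocyte markers, 8 passed the filter and 3 were called higher, led by MPO at 1.40 ± 0.30. Their sum was higher in every decitabine library than in every DMSO library of 4 lines: KG-1 (1354 to 2252 under DMSO, 3991 to 5032 under decitabine), MOLM-13 (30155 to 33139 and 43992 to 46759), MOLM-14 (18409 to 24689 and 31643 to 39722) and OCI-AML3 (22899 to 31329 and 33087 to 42435). It was lower with decitabine in SKM-1 (59205 to 62726 and 29585 to 40740.0). Of 6 progenitor markers, 5 passed, 2 were called higher and FLT3 lower, and in KG-1 their sum was 40711 to 44054 under DMSO and 36604 to 38430.0 under decitabine. This sum was also lower without overlap for MOLM-13, at 13817 to 14377 under DMSO against 11031 to 11472 under decitabine. The same held for MOLM-14, where DMSO libraries had 8573.6 to 9587.8 and decitabine libraries 7359 to 8018.5. The progenitor sums of OCI-AML3 and SKM-1 overlapped between the groups. T cell markers summed to 15.7 to 102.9 in MOLM-13, MOLM-14 and OCI-AML3, to 260.1 to 560.3 in KG-1, and to 5.93 to 9.89 under DMSO and 108 to 118 under decitabine in SKM-1, with 3 of 7 called higher in the panel mean. Megakaryocyte markers summed to 25.3 to 28.6 under DMSO and 179 to 266 under decitabine in SKM-1, and to 1041.5 to 1203 and 1899.5 to 2585 in KG-1. Their groups also did not overlap in MOLM-14 (9.02 to 19.2 and 20.1 to 35.0), and 3 of 5 passed and were called higher. Of 5 B cell markers 2 were called higher, of 5 erythroid markers 2 passed and 1 (EPOR) was called higher, and the 4 of 6 dendritic cell markers that passed had adjusted p-values of 0.373 or more (limma).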

How the data were processed

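Total RNA was sequenced with strand kept (per the labels' protocols, a SMARTer kit after RiboGone, read single-end at 50 bp). The submitters' processing notes name hg38, limma, DESeq2, featureCounts, STAR and Salmon 1.2.1 with no role or order. The deposited signal is linear; the authors' name for the table says that it holds estimated counts after DESeq2 normalization. Whole reads could not be recovered from them, so no count model was run, and depth was estimated from the smallest step between low values. Columns of OCI-AML3, KG-1 and MOLM-14 were assigned by the line, letter and number in their names. The 12 columns that belong to no labelled sample were not used.

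Values were analysed as log2(value + 1) with limma 3.58.1 (R 4.3.3), with 10 group means, trend and robust variances and 20 residual degrees of freedom, checked on simulated data. A value of 10 or more in 3 or more libraries was required, which left 22168 genes to test. P-values were Benjamini-Hochberg adjusted over all of them within a contrast, with a threshold of 0.05. Log2 differences understate the change of low genes. The panel mean is the mean of the 5 line differences. The members, the 7 related gene lists and the 8 marker lists were chosen with earlier results of these data known. All 10 members are described, and of each related list the largest called panel means, at most 4, with partner genes of the members. FLT3, IL34, SPI1, SCARB1, ITGAD, CCR2, MPO, EPOR and the further copies of the Fc receptors were named outside this rule, with values known. One gene that the rule on similar patterns names is not reported here. Alternatives were another pseudocount, no filter, quantile normalization, library weights, a replicate block, single lines, and leaving out libraries or lines. Added after seeing the data were the panel mean of the deep or of the shallow lines and scaling without mitochondrial genes.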

Additional observations from a re-analysis of the deposited data

Results flagged for a closer look

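The response to decitabine differed between the 5 lines, by the F-test of the limma fit across all tested genes, for 5 receptors. The adjusted p was 3.37e-07 for FCGR2A, 4.89e-05 for FCGR1A, 0.000662 for CD33, 0.0243 for ITGAX and 0.0427 for CD68. The CD68 call was lost in 21 of the 30 fits that each left out 1 library, while those of the other 4 held in all 30. With a replicate block the ITGAX and CD68 calls were lost (F-test, limma adjusted p = 0.0802 and 0.0564). FCGR2A had line differences from -0.20 in OCI-AML3 to 1.75 in KG-1. FCGR1A ran from -0.52 in SKM-1 to 0.99 in KG-1, and CD33 from -0.26 in SKM-1 to 0.58 in KG-1. ITGAX was higher in MOLM-13, MOLM-14 and SKM-1, and CD68 was higher in all 5 lines by unequal amounts.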

How the results depend on the processing

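The number of receptors called higher in MOLM-13, 1, was 2 with a pseudocount of 5, 0 without the filter, 1 with quantile normalization (CD68 in place of ITGAX), 7 with library weights, 4 without the 6 shallow libraries, 6 on that line alone, 3 after scaling without mitochondrial genes, and 0 whichever library was left out. In KG-1 the 4 became 1 on that line alone and 4 to 5 when 1 library was left out. In OCI-AML3 the 0 became 2 without the shallow libraries, and 0 to 1 when 1 library was left out. Called lower in SKM-1 were 1, and 2 with library weights or without the shallow libraries, 3 on that line alone, 0 after scaling without mitochondrial genes, and 0 to 1 with 1 library left out. In the panel mean, 6 were higher when any 1 library was left out and 2 in a fit on OCI-AML3, KG-1 and MOLM-14. A fit on SKM-1 and MOLM-13 called 7 higher, CLEC7A among them (1.31, limma adjusted p = 0.00276), and 1 lower (CD33, -0.11, the one reversed value). Responses that differed between lines, 5, were 4 in 18 of the 30 fits without 1 library, without the filter and with quantile normalization, where the CD68 call was lost. The 5 were kept with a pseudocount of 5, library weights, scaling without mitochondrial genes and without the 6 shallow libraries (F-test, limma adjusted p). The scaling added no call. A pseudocount of 5 added CSF1R (0.048), library weights CSF1R and ITGAM (0.000122 and 0.0226). Leaving out the 6 shallow libraries added CSF1R and CLEC7A (0.000467 and 0.0352). The causes were not tested. Of the values of single receptors, 1011 kept their direction and side of the threshold, 44 became called, 40 lost the call and 39 moved. Over all tested genes, calls higher and lower in MOLM-13 were 322 and 371 as deposited, 182 and 102 with quantile normalization and 378 and 181 without mitochondrial genes, and in SKM-1 1264 and 735 against 1467 and 524 without them. On MOLM-13 alone 16% of the genes tested there were called higher, against 1.45% in the shared fit. Such shares are not given for library weights, the replicate block, the other pseudocount, no filter or libraries left out. Counts of receptors under these settings therefore have no background to be read against. By the labels, replicates share only a number. Same-numbered libraries of both treatments correlated at -0.022 to 0.153, and 12 of 15 correlated best with their own number. The exceptions were MOLM-13 replicates 1 and 3 and SKM-1 replicate 1. Where replicate 2 was shallow, every pair of the line correlated best with its own number. Those values were 0.070 to 0.153, against at most 0.052 with another number. The main fit did not use the replicate numbers. With a replicate block, 6 receptors were called higher in the panel mean, 4 in KG-1, 1 in MOLM-13, 6 in MOLM-14, 0 in OCI-AML3 and 4 in SKM-1, and 4 differed in response between lines (ITGAX and CD68 lost, CSF1R gained). That fit lost ITGAX and gained FCGR1A in MOLM-13 (limma, adjusted p = 0.0821 and 0.0364). It lost ITGAM and gained CLEC7A in SKM-1 (0.0535 and 0.0381), and gained CD33 in MOLM-14 (0.0271). This fit gave no value for the DMSO levels. Shallow replicate 2 libraries limit what can be said of CD163 and CLEC7A.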
